A study of Homo sapiens with 16 samples.

Results

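NCI-H1944 cells are a human lung adenocarcinoma line. The cells described here were labelled as knockout for both STING and MAVS, and their RNA was sequenced after a pulse of an MPS1 inhibitor (MPS1i) or after the solvent DMSO. They make up 4 of the 16 libraries of the series and were chosen by library name, with 2 libraries a side. The drug was BAY-1217389 at 100 nM for 48 h, followed by washout and 24 h of culture, and the DMSO cells went through the same times. The other 12 libraries hold the same 2 treatments in a control labelled wild type (SCR), in cells labelled as STING knockout and in cells labelled as MAVS knockout. All 8 groups share the parental line and the culture medium. The labels do not say whether the double knockout line is 1 clone or a pool, nor whether the 2 replicates of a group were separate cultures, so every p-value measures only the spread between these libraries, which may be technical. The series was built to ask how far the response to the pulse needs STING, MAVS or both. The comparison below covers what changed in the cells labelled as lacking both.

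MPS1, encoded by TTK, is the kinase that starts the spindle assembly checkpoint at kinetochores, the protein complexes that tie chromosomes to spindle fibres. The checkpoint holds a cell in mitosis until every chromosome is attached, and cells that divide without it often missegregate chromosomes and form micronuclei. DNA reaching the cytosol is detected by cGAS, which signals through STING. Cytosolic RNA is detected by RIG-I and MDA5, which signal through MAVS. Both routes turn on interferons, and both can turn on NF-kB, a transcription factor of inflammatory genes.

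The double knockout libraries held 25567196 and 35839036 counts after DMSO and 33601232 and 20635229 after MPS1i, within the 19893784 to 49769938 counts of all 16. Replicates correlated at 0.988 (DMSO) and 0.989 (MPS1i) on log2 CPM, which is the count for each 1000000 counts of the scaled library total. The 2 DMSO libraries were further apart than any other replicate pair by chi-square per gene (8.71, against 2.699 to 5.75 in the other 7 groups). Between them 87 of 13790 genes with at least 1 CPM differed at least 2-fold (0.631%). By that share and by correlation the STING DMSO pair was further apart (94 of 13838 genes or 0.679%, correlation 0.986). Pseudogenes held 3.89% and 3.61% of counts after DMSO and 4.54% and 4.57% after MPS1i in these cells, and the part of this in any result was not tested. STING1 stood at 4.89 and 4.83 CPM after DMSO and 4.04 and 4.21 after MPS1i in the double knockout, with 8.25 and 8.30 in SCR cells after DMSO. MAVS stood at 222 and 208 CPM against 189 and 183 in SCR cells after DMSO, so its transcript level does not check that label. EPCAM, CDH1, KRT7, KRT8 and KRT18, which mark epithelial cells, were detected in all 4 libraries, whereas KRT19 and the lung lineage markers NKX2-1, NAPSA and SFTPB had between 0 and 8 counts each. Of markers of other cells, CD3E (T cells) and COL1A2 (fibroblasts) had 0 counts in all 4 libraries (up to 3 counts per library could still be missed), while CD14 (monocytes) had 12 to 22, PECAM1 (endothelium) 32 to 82 and DCN (fibroblasts) 490 to 923 counts.

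Of 17950 genes tested with edgeR's quasi-likelihood test (two-sided), 2648 were called at a Benjamini-Hochberg adjusted p under 0.05, or 14.8%. Of these, 1173 rose (6.53% of those tested) and 1475 fell (8.22%). With upper-quartile scaling 1553 rose and 1175 fell, so the balance of rises and falls rests on the scaling, which moved the median of all genes from 0.0036 to 0.038 on the log2 scale. Most changes were small. The median log2 fold change was 0.36 among genes that rose and -0.35 among genes that fell, and 255 genes (1.42%) changed at least 2-fold. Of the 197 genes that rose at least 2-fold, 139 had a mean under 1 CPM in these cells, against 19 of the 58 that fell. The number called was 1854 without DMSO replicate 2, 1433 without MPS1i replicate 1, 1682 without MPS1i replicate 2 and 3120 without DMSO replicate 1. A total of 354 of the genes that rose and 672 of those that fell were called whichever of the 4 libraries was left out. Both MPS1i libraries lay above both DMSO libraries for 25.6% of all tested genes and below both for 24.8%. This held for 99.9% of called rises and 100% of called falls, so a lack of overlap adds little to a call.

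**Figure D1:**
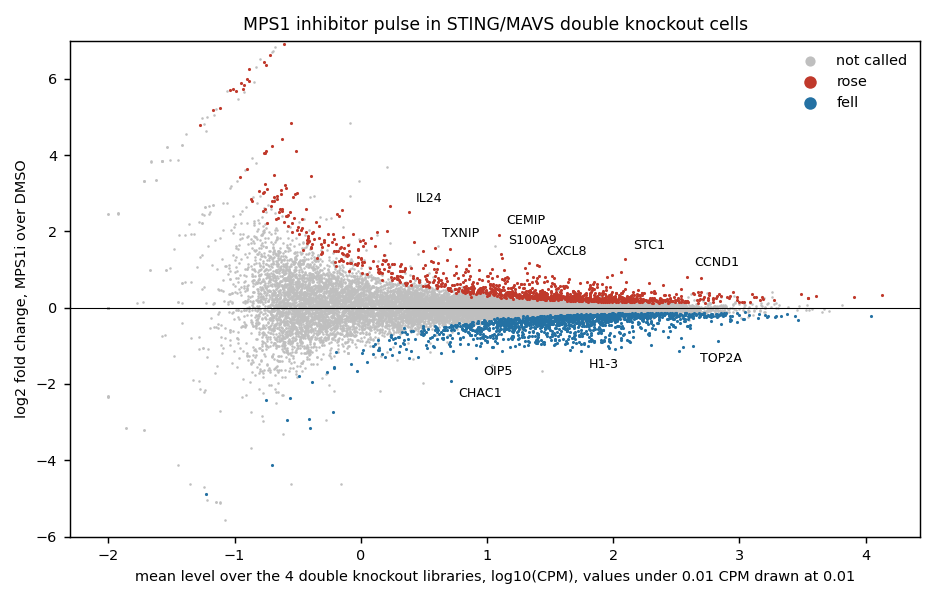
Log2 fold change after the MPS1i pulse in double knockout cells (vertical axis) against the mean level over the 4 libraries as log10 CPM (horizontal axis), 1 point per tested gene. Genes that rose are red, genes that fell blue and genes not called grey. Many of the widest rises lie at low levels, and 19 of 17950 points lie outside the vertical axis.

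The genes of mitosis fell together. Of 124 tested genes in 6 lists covering the spindle checkpoint, mitotic entry, centromeres and kinetochores, mitotic kinesins, chromatid cohesion and condensation, and spindle and cytokinesis, 113 fell and 0 rose, where 8.22% of all tested genes fell. Their median log2 fold change was -0.68, against 0.0036 over all tested genes. The 11 that did not pass were MAD2L2, NUMA1, ZW10, PKMYT1, MIS12, UBE2S, DSN1, NCAPH2, CDC25A, MAD2L1BP and MAD1L1. In bulk RNA, fewer cells in a state and less RNA per cell cannot be told apart.

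TTK itself (chr6:80003887-80042527, GRCh38 as in every position here unless stated), the gene of the inhibited kinase, stood at 62.45 and 70.45 CPM after DMSO and 34.4 and 35.3 after MPS1i. Both MPS1i libraries lay below both DMSO libraries, and the log2 fold change was -0.94 ± 0.07 (standard error from the test, as for each value after ± on that scale; adjusted p = 9.0e-10). All 12 checkpoint genes that fell did so without any 1 library as well. They include BUB1 (-0.76), the kinase that recruits other checkpoint proteins, BUB1B (-0.87), KNTC1 (-0.67) and TRIP13 (-0.58), which takes the checkpoint complex apart. KNL1, the kinetochore scaffold for BUB1, fell by 0.90 on the log2 scale, and CDC20, the checkpoint's target, by 0.71.

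MKI67 (chr10:128096659-128126423), which coats mitotic chromosomes and marks cycling cells, stood at 839.6 and 903 CPM after DMSO and 472 and 485 after MPS1i. Its log2 fold change was -0.87 ± 0.05 (adjusted p = 3.8e-12). TOP2A (chr17:40388525-40417896), the enzyme that untangles sister chromatids, went from 537 and 610 CPM to 287 and 289, a log2 fold change of -0.99 ± 0.05. For both genes the DMSO and MPS1i libraries did not overlap, as in 100% of the genes called as fallen. Cyclin A2 (CCNA2, -0.88), cyclin B1 (CCNB1, -0.70) and the mitotic kinases AURKA (-0.84), PLK1 (-0.89) and NEK2 (-1.01) fell by like amounts. All 12 mitotic kinesins, the motors that move chromosomes and build the spindle, fell, from -0.57 to -1.10 (KIF4A), with KIF20A at -1.02 and KIF14 at -1.04. Among centromere and kinetochore genes 30 of 32 fell, including CENPF (-1.04), CENPE (-1.08), SKA1 (-0.95), NUF2 (-0.85) and CENPA (-1.03), the histone variant that marks centromeres. Condensin subunits NCAPG (-0.85), NCAPG2 (-0.74), NCAPD2 (-0.60) and NCAPH (-0.74) fell, as did the cytokinesis genes CIT (-0.88), PRC1 (-0.81), CEP55 (-0.90), NUSAP1 (-0.90) and ASPM (-1.14). The counts of these 6 lists moved by no more than 4 genes when any 1 library was left out.

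Promoters of mitosis genes often carry a cell cycle homology region (CHR), the motif TTTGAA, through which the DREAM and MuvB complexes are known to act on genes of mitosis. In RefSeq's promoter sequences (GRCh38.p14, the 250 bases before the start site, motif on either strand), 42 of the 103 mitosis genes with a match in that table hold TTTGAA, or 40.8%, against 8.95% of 11896 tested genes with a match. In the last 60 bases before the start the shares were 21.4% and 1.67%. The stretches of 90 bases before the start of 4 of them are shown. They were among the list members with the smallest adjusted p, hold the motif there, and the stretch lies outside the deposited span of the gene, which left out BUB1B, CENPA, KIF11 and PRC1. Capitals mark TTTGAA, or TTCAAA where it lies on the other strand.
MKI67 (chr10:128126424-128126513, minus strand): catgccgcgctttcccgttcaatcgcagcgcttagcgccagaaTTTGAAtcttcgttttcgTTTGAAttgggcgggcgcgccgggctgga
GTSE1 (chr22:46296780-46296869, plus strand): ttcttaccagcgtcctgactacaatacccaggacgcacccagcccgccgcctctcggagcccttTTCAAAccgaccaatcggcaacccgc
KIF4A (chrX:70290014-70290103, plus strand): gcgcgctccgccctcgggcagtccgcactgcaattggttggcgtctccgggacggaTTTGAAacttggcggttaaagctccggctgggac
NCAPG (chr4:17810889-17810978, plus strand): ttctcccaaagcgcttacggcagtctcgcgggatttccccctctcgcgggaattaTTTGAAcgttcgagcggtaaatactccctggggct
The motif stood in 15.7% of matched promoters of all genes that fell and in 7.83% of those of genes that rose. The CCAAT box, searched on either strand, was in 63.1% of the mitosis promoters, 60% of the DNA replication promoters and 35.4% of all. These shares describe letters in a window and show no binding.

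The median fold change of the mitosis genes was negative in all 4 genotypes, and differences were called mostly against SCR cells. Their median log2 fold change was -0.80 in SCR, -0.65 in STING and -0.60 in MAVS cells. The difference of effects (an interaction term, with no library shared between the effects) was called for 50 genes against SCR cells, 34 of them higher in the double knockout, meaning a smaller fall or a rise, and 16 lower. It was called for 2 against STING cells (0 higher) and for 12 against MAVS cells (3 higher). Over all tested genes 28% were called against SCR, 4.72% against STING and 11.4% against MAVS cells. TOP2A illustrates the SCR side, with a log2 fold change of -1.64 in SCR cells and an adjusted p of 1.8e-07 for the difference, while for TTK (-0.92, -0.86 and -0.74 in SCR, STING and MAVS cells) no difference was called.

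**Figure D2:**
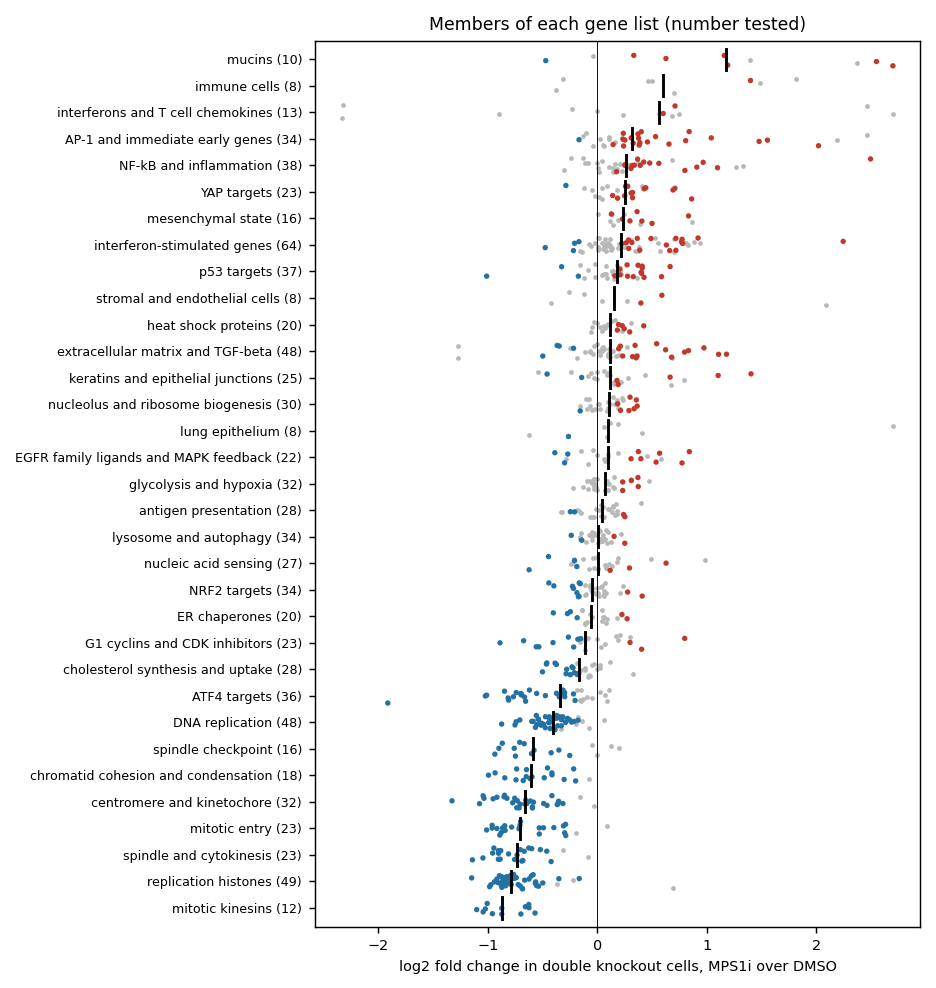
Log2 fold change after the MPS1i pulse in double knockout cells for each tested member (points) of 33 gene lists, with the list's median (black bar) and the number tested in brackets. Red points rose, blue points fell and grey points were not called. The 6 mitosis lists and the replication histones lie furthest to the left, with medians from -0.59 to -0.87, and 3 points beyond the drawn range of -2.5 to 2.7 are drawn at its edge.

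Genes of DNA replication also fell. Of 48 tested, 40 fell and 0 rose, with a median log2 fold change of -0.40, where 8.22% of all tested genes fell. With a library left out, between 33 and 37 fell. The helicase subunits MCM2 to MCM7, which unwind DNA at the fork, all fell, from -0.27 for MCM6 to -0.54 for MCM3, although MCM2 was not called without DMSO replicate 1 or MPS1i replicate 2 (adjusted p = 0.0534 and 0.0573) and MCM7 was not without MPS1i replicate 1 (0.0684). MCM4 (chr8:47960185-47978160) went from 322.5 and 326 CPM to 227 and 228, a log2 fold change of -0.51 ± 0.04 (adjusted p = 2.4e-09). MCM3 (chr6:52264014-52284881) went from 136 and 149 CPM to 100.2 and 96.0, or -0.54 ± 0.06. In neither gene did the treatments overlap. Enzymes that supply nucleotides fell as well, among them RRM1 (-0.52), TK1 (-0.71) and TYMS (-0.36). So did the primase subunit PRIM1 (-0.74) and TIMELESS (-0.47), which steadies the fork. PCNA (-0.21), the sliding clamp, was not called without MPS1i replicate 2 (adjusted p = 0.11).

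The fall of replication genes was larger in the double knockout than in the other genotypes. The list's median was 0.060 in SCR, -0.17 in STING and -0.08 in MAVS cells. The effect in the double knockout was lower for 31 of 48 genes against SCR cells, 9 against STING cells and 20 against MAVS cells, and higher for 1, 0 and 0. Over all tested genes 14.5%, 3.17% and 6.41% were lower. Under DMSO, MCM4 stood at 231 and 235 CPM in SCR, 241.5 and 233 in STING and 243.5 and 242 in MAVS cells, all below the 322.5 and 326 of the double knockout. After MPS1i the order differed, with 258 and 263 in SCR, 221 and 231 in STING, 250 and 245 in MAVS and 227 and 228 in double knockout cells. The difference in log2 fold change was -0.68 ± 0.06 against SCR, -0.44 ± 0.06 against STING and -0.54 ± 0.06 against MAVS cells (adjusted p = 1.9e-09, 1.4e-05 and 3.7e-07). The double knockout thus started above the other genotypes and ended within their range. Over the list, the median level under DMSO was 0.16, 0.20 and 0.16 higher (log2, with 0.1 CPM added) than in SCR, STING and MAVS cells, and after MPS1i it was -0.22, 0.02 and -0.15 relative to them.

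A total of 8 replication genes fell in the double knockout by more than in every other genotype: MCM3, MCM4, MCM10, ORC1, CHAF1A, CHAF1B, CLSPN and TIMELESS. MCM3, MCM4, CHAF1B and CLSPN kept all of these calls whichever library was left out. The other 4 lost a difference. MCM10 lost that against STING cells without double knockout DMSO replicate 2 or MPS1i replicate 1, or without replicate 1 of STING DMSO or of STING MPS1i (highest adjusted p 0.151). ORC1 lost it without double knockout MPS1i replicate 1, either STING DMSO library or STING MPS1i replicate 2 (highest 0.17). CHAF1A lost it without any 1 of double knockout DMSO replicate 2, MPS1i replicate 1 and the 4 STING libraries (highest 0.156). It also lost that against MAVS cells without double knockout MPS1i replicate 1, MAVS DMSO replicate 1 or MAVS MPS1i replicate 2 (highest 0.076), and TIMELESS did without MAVS MPS1i replicate 2 (0.0557). CHAF1A was also not called as fallen without MPS1i replicate 1 (adjusted p = 0.0799).

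E2F factors are known to act on replication genes through sites such as TTGGCGC and TTCCCGC. One of these stood, on either strand, in 17 of 40 matched replication promoters (42.5%), against 12.1% of all matched promoters and 20.4% of those of mitosis genes, while TTTGAA stood in 1 of the 40 (2.5%). A stretch of 90 bases before the start is shown for 2 replication genes that hold a site there. Capitals mark it, and GCGGGAA is TTCCCGC read on the other strand.
ORC1 (chr1:52404424-52404513, minus strand): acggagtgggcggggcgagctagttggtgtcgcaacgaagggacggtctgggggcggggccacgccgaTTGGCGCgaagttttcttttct
TYMS (chr18:657563-657652, plus strand): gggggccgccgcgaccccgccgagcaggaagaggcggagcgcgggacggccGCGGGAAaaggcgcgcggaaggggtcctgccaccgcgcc
ORC1, a subunit of the complex that marks replication origins, went from 33.6 and 31.3 CPM to 23.6 and 24.2 in the double knockout, a log2 fold change of -0.44 ± 0.08, and its log2 fold changes elsewhere were 0.49 (SCR), 0.03 (STING) and 0.18 (MAVS). TYMS, thymidylate synthase, went from 142 and 145 CPM to 109.5 and 115, and no difference from another genotype was called.

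Histone genes that are expressed in S phase fell too. Of 49 tested, 46 fell and 0 rose, with a median log2 fold change of -0.79, where 8.22% of all tested genes fell. With a library left out, 38 to 44 fell. These transcripts mostly lack a poly(A) tail and the RNA was enriched for poly(A), so the values cover what that selection kept. H1-3 (chr6:26234212-26234987), a linker histone, went from 75.4 and 78.4 CPM to 35.2 and 34.1, a log2 fold change of -1.15 ± 0.07 (adjusted p = 2.6e-11), with no overlap between treatments. H1-5 (-0.97), H2BC4 (-0.76), H2BC8 (-0.79) and H2BC11 (-0.86) followed. Near-identical histone genes may share reads. The effect was higher in the double knockout, meaning a smaller fall, for 30 of the 49 against SCR cells, whose median was -1.36, for 14 against MAVS cells and for 2 against STING cells, where 13.5%, 4.97% and 1.55% of all tested genes were higher. H4C14 was an exception in the other direction, at -0.54 in the double knockout against 0.14, 0.00 and 0.09 in SCR, STING and MAVS cells, with every difference called, also without any 1 library.

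G1 regulators did not move as one. Of 23 tested, 3 rose and 9 fell, with a median of -0.11, where 6.53% of all tested genes rose and 8.22% fell. With a library left out, 4 to 7 fell (4 without MPS1i replicate 1, 5 without DMSO replicate 2 and 5 without MPS1i replicate 2). Cyclin D1 (CCND1, chr11:69641156-69654474), which drives G1 progress with CDK4 and CDK6, went from 286 and 272.5 CPM to 485 and 484, a log2 fold change of 0.80 ± 0.04 (adjusted p = 4.0e-12). It rose by 0.99, 0.84 and 0.78 in SCR, STING and MAVS cells. The CDK inhibitor gene CDKN2C (-0.89), RBL1 (-0.67), CDK2 (-0.40) and E2F8 (-0.56) fell. CDKN1A, which encodes the CDK inhibitor p21, stood at 191 and 150 CPM after DMSO and 237 and 213 after MPS1i, a log2 fold change of 0.40 ± 0.11 whose adjusted p of 0.028 became 0.0857 without DMSO replicate 2 and 0.191 without MPS1i replicate 1. CCNE1 (0.30) was likewise not called without DMSO replicate 1, MPS1i replicate 1 or MPS1i replicate 2 (adjusted p = 0.227, 0.104 and 0.187). CDK2 and RBL1 fell more than in every other genotype, but the difference from STING cells was lost without double knockout MPS1i replicate 1 (adjusted p = 0.136 and 0.0521) and also, for CDK2, without any 1 of the 4 STING libraries (0.0525 to 0.0935) and, for RBL1, without double knockout MPS1i replicate 2, STING DMSO replicate 2 or STING MPS1i replicate 1 (0.0564, 0.147 and 0.0758).

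Targets of ATF4, the transcription factor of the amino acid and integrated stress response, fell. Of 36 tested, 25 fell and 0 rose, with a median of -0.34, where 8.22% of all tested genes fell. With a library left out, 22 to 28 fell. The steepest fall was CHAC1 (chr15:40952962-40956512), an enzyme that degrades glutathione, from 8.99 and 7.52 CPM to 2.18 and 2.18, a log2 fold change of -1.91 ± 0.16 (adjusted p = 1.8e-09). DDIT3, which encodes the stress factor CHOP, went from 14.65 and 14.8 CPM to 6.65 and 8.04 (-1.02 ± 0.10), and SESN2, a nutrient sensor, from 28.6 and 24.5 CPM to 13.2 and 13.01 (-1.01 ± 0.09). In each of these 3 genes both MPS1i libraries lay below both DMSO libraries. Serine synthesis enzymes PSAT1 (-0.77) and PHGDH (-0.70), asparagine synthetase ASNS (-0.85), mitochondrial PCK2 (-0.82) and MTHFD2 (-0.62), TRIB3 (-0.74) and the secreted hormone STC2 (-0.65) also fell. ATF4's own transcript was at -0.15 and was not called.

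Many ATF4 targets fell less in the double knockout than in SCR and MAVS cells, and fewer did against STING cells. The list's median was -0.99 in SCR, -0.60 in STING and -0.71 in MAVS cells, and the effect was higher in the double knockout for 28, 17 and 26 of the 36 genes, where 13.5%, 1.55% and 4.97% of all tested genes were higher. PSAT1 (chr9:78297125-78330093) went from 336 and 353 CPM to 208 and 196 in the double knockout. It went from 724.5 and 715 to 96.65 and 100.2 in SCR, from 508.5 and 507 to 162 and 169 in STING and from 596 and 651 to 159 and 157 in MAVS cells. The double knockout thus had the lowest level of the 4 genotypes under DMSO and the highest after MPS1i, and its effect was 2.10 ± 0.07, 0.85 ± 0.07 and 1.21 ± 0.07 higher on the log2 scale (adjusted p = 4.1e-18, 1.2e-09 and 1.0e-12). ASNS (chr7:97851677-97872542) went from 82.5 and 90.7 CPM to 49.15 and 47.1, with log2 fold changes of -2.82, -1.84 and -1.93 in SCR, STING and MAVS cells. Over the list, the median level under DMSO was -0.64, -0.34 and -0.52 relative to SCR, STING and MAVS cells, and after MPS1i 0.04, -0.08 and -0.10. The double knockout's treatment effect was lower than in SCR, STING and MAVS cells for 5, 4 and 5 genes. Of all tested genes 14.5%, 3.17% and 6.41% were lower. CHAC1 was among these list members against each genotype, and SESN2 was against STING and MAVS cells. CHAC1 fell by 0.96, 0.72 and 0.75 in the other genotypes (adjusted p = 0.0013, 0.00087 and 0.00042 for the differences). Of the 15 list members higher than in every other genotype, 9 kept all of their calls whichever library was left out.

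Genes of cholesterol synthesis and uptake fell in part, with 13 of 28 called as fallen (9 to 13 with a library left out), 0 as risen and a median of -0.17. For comparison, 8.22% of all tested genes fell. INSIG1 (chr7:155297776-155310235), an SREBP target that holds SREBP in the endoplasmic reticulum, went from 341 and 345 CPM to 256 and 242, a log2 fold change of -0.46 ± 0.05 (adjusted p = 6.2e-08). Its treatments did not overlap. ACAT2 (-0.50), EBP (-0.39), FDPS (-0.28) and the fatty acid desaturase SCD (-0.25) fell. INSIG1 was at 0.45, -0.09 and 0.14 in SCR, STING and MAVS cells, and the double knockout's effect was lower than each (adjusted p = 2.7e-11, 0.00044 and 1.9e-07). Against SCR cells 11 of the 28 genes were lower and 6 higher, against STING cells 7 and 0, and against MAVS cells 11 and 2. Of all tested genes 14.5%, 3.17% and 6.41% were lower and 13.5%, 1.55% and 4.97% higher.

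**Figure D3:**
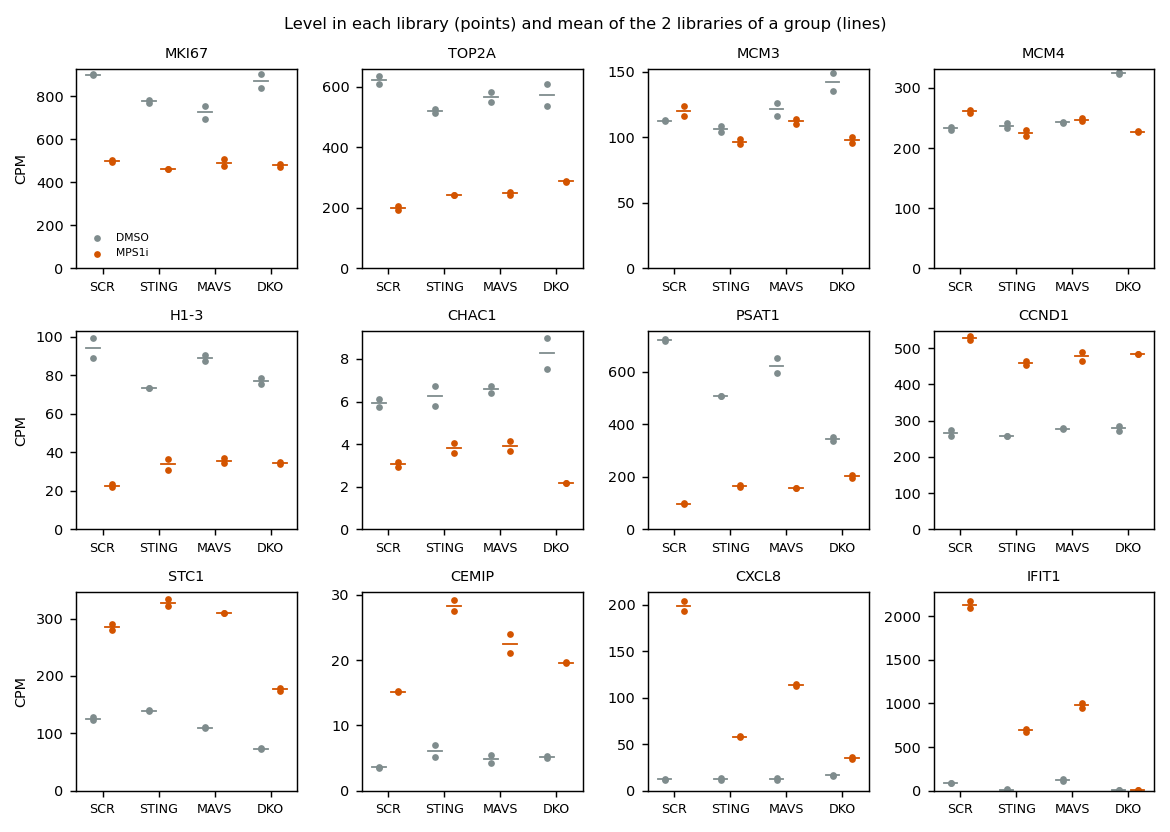
CPM in each library (points, vertical axis from 0) and mean of the 2 libraries of a group (lines) for 12 genes in SCR, STING, MAVS and double knockout (DKO) cells after DMSO (grey) and MPS1i (orange). MKI67, TOP2A and H1-3 fell and STC1, CEMIP and CCND1 rose in all 4 genotypes. IFIT1 and CXCL8 were lowest after MPS1i in the double knockout of the 4 genotypes, where IFIT1 was 6.74 and 7.38 CPM and CXCL8 34.65 and 36.3.

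Immediate early genes, which growth factor and stress kinases switch on quickly, rose. Of 34 tested, 21 rose and 1 fell, with a median of 0.32, where 6.53% of all tested genes rose. The count rested on single libraries in part, at 11 without DMSO replicate 2 and 12 without MPS1i replicate 1. JUN (chr1:58776845-58784048), a subunit of the AP-1 factor, went from 13.7 and 12.3 CPM to 26.2 and 27.3, a log2 fold change of 1.04 ± 0.09 (adjusted p = 3.0e-09). FOSL1 (0.81), DUSP6 (0.84), a phosphatase of ERK, ZFP36 (0.46) and EGR1 (1.48) rose, and FOSB rose from 0.69 and 0.58 CPM to 2.32 and 2.89 (2.02 ± 0.27). All 6 kept the call without any 1 library. FOSL2 was the member that fell (-0.17), and it was not called without DMSO replicate 1, MPS1i replicate 1 or MPS1i replicate 2 (adjusted p = 0.111, 0.10 and 0.0718).

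The rises in immediate early genes were larger elsewhere, with medians of 0.88, 0.61 and 0.67 in SCR, STING and MAVS cells. The effect in the double knockout was lower for 22, 9 and 17 genes, where 14.5%, 3.17% and 6.41% of all tested genes were lower. EGR1 rose by 3.70, 2.95 and 3.46 in SCR, STING and MAVS cells. Ligands and feedback genes of the EGFR pathway were mixed, with 7 of 22 risen and 3 fallen. Among all tested genes 6.53% rose and 8.22% fell. The EGFR ligands HBEGF (0.84) and TGFA (0.57), the receptor EGFR (0.40) and the feedback genes SPRY4 (0.77) and PHLDA1 (0.31) rose, while ERRFI1 (-0.30), a receptor inhibitor, fell. EGF (-0.39) and ERBB3 (-0.27) fell too, but lost the call without DMSO replicate 2 (adjusted p = 0.0791) and without MPS1i replicate 1 (0.099).

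NF-kB and inflammatory genes rose in part: 16 of 38 rose and 0 fell, with a median of 0.26, where 6.53% of all tested genes rose. The count was 11 without DMSO replicate 2 or without MPS1i replicate 1, 10 without MPS1i replicate 2 and 19 without DMSO replicate 1. The chemokine CXCL8 (chr4:73740541-73743716) went from 16.2 and 16.8 CPM to 34.65 and 36.3, a log2 fold change of 1.10 ± 0.07 (adjusted p = 5.1e-11). IL24 (chr1:206897443-206904139), a cytokine of the IL-10 family, went from 0.61 and 0.80 CPM to 3.98 and 4.21 (2.50 ± 0.23, adjusted p = 1.6e-08). Neither gene's treatments overlapped. CXCL1 (0.91), CXCL2 (0.80), the NF-kB inhibitors TNFAIP3 (0.56) and NFKBIA (0.37) rose, and IL6 rose by 0.26 but was not called without MPS1i replicate 2 (adjusted p = 0.0609). The subunits NFKB1 (-0.13) and RELA (0.16) were not called.

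The same list rose more in each of the other genotypes. Its median was 1.45 in SCR, 0.65 in STING and 1.16 in MAVS cells. The effect in the double knockout was lower for 33, 14 and 27 of the 38 genes and higher for 1, 0 and 0. Of all tested genes 14.5%, 3.17% and 6.41% were lower and 13.5%, 1.55% and 4.97% higher. After MPS1i, CXCL8 reached 193.5 and 204 CPM in SCR, 58.0 and 58.4 in STING and 112 and 115 in MAVS cells. The difference in log2 fold change was -2.90 ± 0.10, -1.12 ± 0.11 and -2.02 ± 0.10 (adjusted p = 1.2e-17, 2.9e-08 and 2.0e-13). IL24 differed less. It rose by 3.61, 2.76 and 4.04 in SCR, STING and MAVS cells, with an adjusted p of 0.020, 0.79 and 0.011 for the difference. The first was lost without double knockout DMSO replicate 2, double knockout MPS1i replicate 1 or SCR DMSO replicate 1 (0.174, 0.0578 and 0.103). The last was lost without double knockout DMSO replicate 2 or MAVS DMSO replicate 2 (0.101 and 0.123).

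Interferon-stimulated genes, the antiviral set that interferons induce, mostly did not pass the test. Of 64 tested, 17 rose, 4 fell and 43 were not called, where 6.53% of all tested genes rose and 8.22% fell. The median was 0.21. Leaving out 1 library gave 10 (DMSO replicate 2), 9 (MPS1i replicate 1), 14 (MPS1i replicate 2) or 18 (DMSO replicate 1) that rose. OAS2 (chr12:112978395-113011723), which makes the activator of RNase L, went from 10.8 and 10.7 CPM to 18.8 and 18.02, a log2 fold change of 0.78 ± 0.07 (adjusted p = 1.6e-08). OAS1 went from 57.6 and 51.05 CPM to 82.1 and 85.8 (0.63 ± 0.06), and MX1, an antiviral GTPase, from 9.33 and 10.8 to 15.1 and 18.8 (0.72 ± 0.11). Both MPS1i libraries were above both DMSO libraries in each. IRF9 (0.49), a transcription factor of the interferon response, and TRIM22 (0.39) rose as well. IFI44 (0.66) was not called without MPS1i replicate 1 (adjusted p = 0.0544). IFIT1 stood at 5.66 and 7.08 CPM after DMSO and 6.74 and 7.38 after MPS1i, where the treatments overlapped and the adjusted p was 0.73. ISG15 went from 6.16 and 4.58 to 9.24 and 9.60 CPM (adjusted p = 0.0519).

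The members that fell, a share no higher than the 8.22% of all tested genes, were TRIM25 (-0.21), APOL6 (-0.22), PARP14 (-0.17) and IFI35 (-0.48). PARP14 was not called without DMSO replicate 2 or MPS1i replicate 1 (adjusted p = 0.0594 and 0.136), and IFI35 was not called without DMSO replicate 1, MPS1i replicate 1 or MPS1i replicate 2 (0.168, 0.162 and 0.0688). The effect on this list was lower than in SCR, STING and MAVS cells for 64, 62 and 61 of the 64 genes, whose medians there were 2.89, 2.82 and 1.998. Of all tested genes 14.5%, 3.17% and 6.41% were lower. OAS2 reached 1350.0 and 1400.0 CPM in SCR cells, 634 and 631 in STING cells and 956 and 970 in MAVS cells. Levels under DMSO were also lower in the double knockout, with a list median of -1.45, -0.40 and -1.50 relative to SCR, STING and MAVS cells on the log2 scale. IFIT1 under DMSO was at 87.7 and 91.0 CPM in SCR, 12.2 and 16.2 in STING and 132 and 111 in MAVS cells.

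Interferon genes themselves were at the floor. IFNB1 had 0 and 1 counts after DMSO and 0 and 0 after MPS1i in the double knockout, and IFNL1 had 0 counts in all 4 libraries, which allows up to 3 counts in each. In SCR cells after MPS1i they had 165 and 222 counts (IFNB1) and 462 and 509 (IFNL1). CXCL10, a T cell chemokine, had 0, 0 and 0 counts and then 3 in MPS1i replicate 2. Of 13 interferon and chemokine genes tested, 2 rose in the double knockout, where 6.53% of all tested genes rose. CCL5 went from 2.87 and 2.25 CPM to 4.21 and 3.97 (0.71 ± 0.14), and was not called without DMSO replicate 2 (adjusted p = 0.0526). CD274, which encodes PD-L1, went from 1.72 and 1.89 CPM to 2.701 and 2.84 (0.60 ± 0.17, adjusted p = 0.017), a call lost whichever of the 4 libraries was left out (adjusted p from 0.0571 to 0.0889).

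Genes of nucleic acid sensing were mixed, with 3 of 27 risen and 4 fallen, where 6.53% of all tested genes rose and 8.22% fell. The RNA sensor RIG-I, listed as DDX58, went from 32.85 and 37.75 CPM to 42.4 and 37.75 (0.18, adjusted p = 0.098). MDA5 (IFIH1) was at -0.03 and CGAS at 0.11, neither called. TLR4, a member of the list that is not itself a sensor of nucleic acids, rose by 0.63. RNASEH2B, a subunit of the enzyme that clears RNA from DNA hybrids, fell by 0.45 on the log2 scale. RNASEH2A (-0.62) was not called without MPS1i replicate 1 (adjusted p = 0.0511), nor was MAVS (-0.19, 0.0749), and MYD88 (0.29) was not called without DMSO replicate 1 or MPS1i replicate 1 (0.0559 and 0.152). ADAR (0.12) lost its call whichever of the 4 libraries was left out (adjusted p from 0.0564 to 0.23). Of 28 antigen presentation genes 2 rose (HLA-B, 0.25, and TAP2, 0.24) and 2 fell (CALR, -0.25, and ERAP1, -0.21), shares near the 6.53% and 8.22% of all tested genes. CALR kept the call whichever library was left out. HLA-B lost it without DMSO replicate 2, MPS1i replicate 1 or MPS1i replicate 2 (adjusted p = 0.501, 0.113 and 0.177), TAP2 without MPS1i replicate 2 (0.0504) and ERAP1 without DMSO replicate 1 or MPS1i replicate 2 (0.0943 and 0.148). The double knockout's effect was lower for 23, 18 and 19 of the 28 against SCR, STING and MAVS cells. Of all tested genes 14.5%, 3.17% and 6.41% were lower.

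p53 targets rose in part. Of 37 tested, 14 rose and 3 fell, with a median of 0.18, where 6.53% of all tested genes rose. The share that fell was near the 8.22% of all tested genes. With a library left out, 8 to 12 rose (9 without DMSO replicate 2, 8 without MPS1i replicate 1 and 8 without MPS1i replicate 2). In SCR, STING and MAVS cells 11, 17 and 11 of the list rose and 10, 5 and 8 fell. The medians there were 0.004, 0.18 and 0.05. Shares of all tested genes there were 26%, 15.5% and 17.1% risen and 24%, 13.9% and 16.3% fallen. PLK2, a kinase induced by p53, went from 194 and 201 CPM to 301 and 292 (0.59 ± 0.05, adjusted p = 9.6e-10), and TIGAR (0.41) rose. Of the death receptors for TRAIL, TNFRSF10A (0.43) and TNFRSF10B (0.33) rose. TNFRSF10B went from 144 and 137 CPM to 177 and 176, and its log2 fold changes were -0.03, 0.04 and 0.05 in SCR, STING and MAVS cells, with every difference called, also without any 1 library. It was the gene that rose in the double knockout, was called in no other genotype and differed from all 3, out of 139 that rose and were called in no other genotype. The decoy receptor TNFRSF10D (chr8:23135588-23164027) lies near it. It went from 58.47 and 58.46 CPM to 88.0 and 91.8 (0.62 ± 0.07), while it fell by 0.97, 0.37 and 0.49 in SCR, STING and MAVS cells (adjusted p = 5.3e-12, 1.3e-07 and 1.8e-08 for the differences). PMAIP1, which encodes the BH3 protein NOXA, fell from 107 and 120 CPM to 92.8 and 88.4 (-0.33 ± 0.05), against 1.36, 0.29 and 0.91 elsewhere. CCNG1 (-0.17) was not called without DMSO replicate 2, MPS1i replicate 1 or MPS1i replicate 2 (adjusted p = 0.117, 0.165 and 0.0853).

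STC1 (chr8:23841929-23854806), a secreted glycoprotein hormone, had the smallest adjusted p of all genes, 2.2e-15. It went from 71.9 and 75.0 CPM to 174 and 179, a log2 fold change of 1.27 ± 0.05, against 1.18, 1.23 and 1.498 in SCR, STING and MAVS cells. CEMIP (chr15:80779343-80951776), which breaks down hyaluronan, went from 5.32 and 5.08 CPM to 19.5 and 19.7 (1.92 ± 0.12), with no difference from another genotype called (2.08, 2.24 and 2.18). Neither gene's treatments overlapped. Matrix and TGF-beta genes counted 15 of 48 risen and 4 fallen, with a median of 0.11, where 6.53% of all tested genes rose. The share that fell was near the 8.22% of all tested genes. The plasminogen activator PLAT (1.11), the urokinase receptor PLAUR (0.68), the protease inhibitor TIMP3 (0.80), the integrin ITGA2 (0.62) and the collagenase MMP1 (1.18) rose. The basement membrane collagens COL4A1 (-0.37) and COL4A2 (-0.35) fell, where SCR cells had 0.63 and 0.45. LAMA3 (-0.22) lost its fall without MPS1i replicate 1 (adjusted p = 0.0611), and ITGB6 (-0.50) without DMSO replicate 2, MPS1i replicate 1 or MPS1i replicate 2 (0.107, 0.098 and 0.0719).

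Targets of YAP, the factor that reads cell shape and contact, rose for 13 of 23 genes, with 1 fallen and a median of 0.25. For comparison, 6.53% of all tested genes rose and 8.22% fell. NT5E (chr6:85449584-85495791), the surface enzyme CD73 that makes adenosine, went from 66.2 and 71.9 CPM to 119 and 133 (0.86 ± 0.06, adjusted p = 5.0e-11), and CCN2 (0.69), CCN1 (0.44), F3 (0.43), IGFBP3 (0.32) and PTPN14 (0.28) rose. NT5E rose more elsewhere, by 1.98, 1.32 and 1.42 in SCR, STING and MAVS cells, with each difference called. AJUBA fell (-0.29) but lost the call without DMSO replicate 2, MPS1i replicate 1 or MPS1i replicate 2 (adjusted p = 0.0616, 0.0578 and 0.102).

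Genes of the mesenchymal state rose for 7 of 16, with 0 fallen and a median of 0.24, where 6.53% of all tested genes rose. Without MPS1i replicate 1, 3 rose. LOXL2 (0.50), a collagen crosslinking enzyme, and MMP2 (0.36) kept the call in each case, while SNAI2 (0.41) lost it without MPS1i replicate 1 (adjusted p = 0.121), ZEB2 (0.30) without DMSO replicate 1 (0.0563) and SPARC (0.83) without DMSO replicate 2 (0.0851) and MPS1i replicate 1 (0.152). E-cadherin (CDH1), which joins epithelial cells, fell from 51.2 and 52.5 CPM to 36.7 and 38.9 (-0.46 ± 0.06, adjusted p = 2.9e-06), and vimentin (VIM, 0.00) was not called. Of 25 keratin and junction genes 5 rose and 2 fell, where 6.53% of all tested genes rose and 8.22% fell. The rises numbered 2 without DMSO replicate 2, 3 without MPS1i replicate 1 and 2 without MPS1i replicate 2. KRT81 (1.10) and KRT17 (0.66) rose in each case. KRT7 (0.19) was not called without DMSO replicate 2, MPS1i replicate 1 or MPS1i replicate 2 (adjusted p = 0.215, 0.0926 and 0.166), nor was DSP (-0.14, 0.334, 0.0827 and 0.164).

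Mucins changed in both directions, with 6 of 10 risen and 1 fallen (4 risen without MPS1i replicate 1). Among all tested genes 6.53% rose and 8.22% fell. MUC5AC (chr11:1157953-1201138), a secreted gel-forming mucin, went from 13.5 and 13.35 CPM to 29.9 and 30.1 (1.16 ± 0.08, adjusted p = 9.1e-11). The treatments did not overlap. MUC5B (0.63) and MUC13 (0.33) rose, and MUC16, which carries the antigen CA-125, fell from 125 and 123 CPM to 90.2 and 88.9 (-0.47 ± 0.05). MUC16 rose by 0.91 and 0.93 in SCR and MAVS cells and fell by 0.77 in STING cells. The 3 other mucins that rose, MUC20, MUC2 and MUC12, had less than 2 CPM in every double knockout library. MUC2 was not called without DMSO replicate 2, MPS1i replicate 1 or MPS1i replicate 2 (adjusted p = 0.206, 0.0819 and 0.148), and MUC12 was not without MPS1i replicate 1 (0.055).

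Other programmes moved less. For comparison, 6.53% of all tested genes rose and 8.22% fell. Of 20 endoplasmic reticulum chaperone genes 4 fell and 2 rose, with HERPUD1 at -0.40 and XBP1 at -0.27. Heat shock genes rose for 6 of 20, but 2 rose without MPS1i replicate 1 and 1 without MPS1i replicate 2. Among 34 NRF2 targets 9 fell (5 without DMSO replicate 2, 4 without MPS1i replicate 1 and 4 without MPS1i replicate 2) and 2 rose, namely ALDH3A1 (0.41) and AKR1B1 (0.28), while TRIM16L (-0.40), GPX2 (-0.44) and AKR1C2 (-0.23) fell. Glycolysis and hypoxia genes rose for 5 of 32, including the glucose transporter SLC2A1 (0.31), PFKFB3 (0.37) and NDRG1 (0.37), and nucleolar genes for 7 of 30 (5 to 9 with a library left out), including NOP2 (0.36) and RRP12 (0.36). Lysosome and autophagy genes rose for 2 and fell for 2 of 34, no more often than all tested genes (6.53% and 8.22%), and the 2 rises were not called without DMSO replicate 2 or without MPS1i replicate 1.

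At 1 CPM or more on average, the widest called changes included genes of unknown or little described function. Beside IL24, FOSB and CEMIP, rises were seen in SBSN (1.82), a secreted skin protein, TAF11L11 (1.73), AC144831.1 (1.99), TXNDC2 (1.61), LINC00565 (1.61) and TXNIP (1.57), a thioredoxin-binding protein that went from 1.45 and 2.39 CPM to 6.01 and 5.68. RTEL1-TNFRSF6B, a readthrough gene that shares reads with its neighbours, had the largest rise (2.67 ± 0.76, adjusted p = 0.047), lost whichever of the 4 libraries was left out. Beside CHAC1, the widest falls included OIP5 (-1.33), which loads CENPA onto centromeres, and ARHGAP33 (-1.30). The pseudogene ASNSP1 (-1.18) shares sequence with ASNS. PRR11, a gene of late cell cycle phases, went from 123 and 122 CPM to 62.4 and 59.9 (-0.999 ± 0.05), against -2.39 in SCR cells. LMNB1, a nuclear lamina protein, went from 108 and 111 CPM to 59.4 and 61.6 (-0.86 ± 0.06).

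Across the genome the calls were spread over all chromosomes. Chromosome 20 had the highest share of rises, 51 of 437 tested genes or 11.7%, and chromosome 6 the highest share of falls, 131 of 958 or 13.7%. Chromosome 6 holds most replication histone genes, and without the listed ones 90 of 915 genes fell, or 9.84%.

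**Figure D4:**
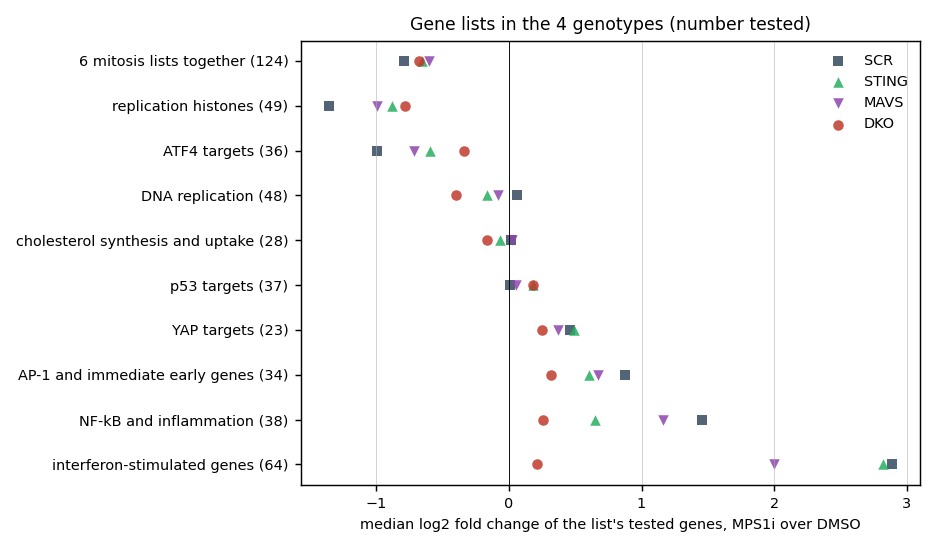
Median log2 fold change after MPS1i (horizontal axis) of 10 gene sets (vertical axis, number of tested genes in brackets) in SCR, STING, MAVS and double knockout (DKO) cells. Of the 4 genotypes, the double knockout had the lowest median for DNA replication (-0.40) and for cholesterol genes (-0.17). It had the median nearest 0 for replication histones (-0.79), ATF4 targets (-0.34) and YAP targets (0.25). The same held for immediate early genes (0.32), NF-kB genes (0.26) and interferon-stimulated genes (0.21).

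Much of the double knockout's response was shared by direction with the other genotypes. Of the 1173 genes that rose, 864 also rose in SCR, 840 in STING and 790 in MAVS cells (73.7%, 71.6% and 67.3%). Called in either direction in SCR, STING and MAVS cells were 50%, 29.4% and 33.4% of all tested genes, and 26%, 15.5% and 17.1% rose. The 864, 840 and 790 shared rises are 18.5%, 30.2% and 25.7% of the genes that rose in SCR, STING and MAVS cells. Of the 1475 that fell, 1025, 1001 and 989 also fell (69.5%, 67.9% and 67.1%), against 24%, 13.9% and 16.3% of all tested genes. The 1025, 1001 and 989 shared falls are 23.8%, 40.2% and 33.8% of the falls in SCR, STING and MAVS cells. In all 4 genotypes 663 genes rose and 810 fell. The size of the effect often differed, with a difference called against SCR, STING and MAVS cells for 41.6%, 11.4% and 20.6% of the rises. Among the falls it was called for 51.5%, 9.69% and 27.1%, where 28%, 4.72% and 11.4% of all tested genes were called. Called in the opposite direction in SCR, STING and MAVS cells were 63, 15 and 20 of the rises and 139, 30 and 63 of the falls. The median log2 fold change of the genes that rose was 0.36 in the double knockout and 0.49, 0.40 and 0.38 in SCR, STING and MAVS cells. For the genes that fell it was -0.35 against -0.42, -0.31 and -0.34. Genes that were called here had to pass in these cells, which favours larger values here.

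The effect differed from that in SCR cells for 5021 genes (28%, 2415 higher and 2606 lower), from that in STING cells for 848 (4.72%, 279 higher and 569 lower) and from that in MAVS cells for 2043 (11.4%, 893 higher and 1150 lower). The balance rests on the processing: with upper-quartile scaling it was 2872 higher and 2280 lower against SCR, 389 and 453 against STING and 1096 and 1033 against MAVS cells. Against SCR cells more genes were higher than lower also without any 1 library of the comparison other than double knockout MPS1i replicate 2 (for example 2588 and 2357 without double knockout DMSO replicate 1), and against MAVS cells without double knockout DMSO replicate 2 (1068 and 996). Without STING DMSO replicate 2, STING MPS1i replicate 2 or double knockout MPS1i replicate 1 the count against STING cells was 546, 564 or 535. Among genes called in the double knockout, 60 had a higher effect than in all 3 other genotypes (13 rose and 47 fell) and 155 a lower one (80 rose and 75 fell). Of these, 25 and 46 kept every call whichever library was left out. The 47 that fell less included 15 ATF4 targets and 2 replication histones, of which 9 and 2 kept every call. The 80 that rose less included 15 interferon-stimulated, 6 NF-kB and 5 immediate early genes, of which 5, 5 and 2 kept every call. The 75 that fell more, or fell where others rose, included 8 replication, 4 cholesterol and 4 interferon-stimulated genes. Of these, 4, 2 and 2 kept every call.

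Single genes also stood apart. NIBAN1, a stress-induced gene, went from 88.3 and 94.9 CPM to 74.0 and 67.2 (-0.37 ± 0.06), against -2.07, -1.26 and -1.42 in SCR, STING and MAVS cells. TNFRSF9, the costimulatory receptor 4-1BB, fell by 0.59 on the log2 scale here and by 2.08, 1.75 and 1.47 there. LPCAT1, a lipid enzyme listed with lung epithelium, fell from 307 and 313 CPM to 264 and 251 (-0.27 ± 0.04), against 0.24, 0.08 and 0.06. All 3 kept each call whichever library was left out. UHRF1, which maintains DNA methylation, went from 45.3 and 44.9 CPM to 35.6 and 36.3 (-0.33 ± 0.07), against 0.15, 0.10 and 0.10. Its difference from STING cells was lost without double knockout MPS1i replicate 1, STING DMSO replicate 2 or STING MPS1i replicate 2 (adjusted p = 0.0608, 0.103 and 0.0583), and that from MAVS cells without MAVS MPS1i replicate 2 (0.0678).

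Genes of other cell types were partly detected. Of 21 immune cell genes 8 were tested and 1 rose, S100A9, from 6.73 and 7.44 CPM to 17.4 and 20.4 (1.40 ± 0.10). It encodes a calcium-binding protein that epithelial cells can also make, and the summed level of the immune list was 17.7 and 16.4 CPM after DMSO and 26.5 and 29.7 after MPS1i. CD3E was at 0 counts in every library and PTPRC, the common leukocyte antigen, had 0, 2, 0 and 1 counts. Of 17 stromal and endothelial genes 8 were tested and 2 rose, DCN (0.40, from 18.7 and 21 CPM to 26.8 and 25.6) and ACTA2 (0.59), with summed levels of 59.96 and 64.03 CPM after DMSO and 69.7 and 65.65 after MPS1i. ACTA2 was not called without DMSO replicate 1 or MPS1i replicate 2 (adjusted p = 0.0615 and 0.0927). PECAM1, an endothelial marker, stood at 1.87 and 2.28 CPM after DMSO and 1.6 and 1.51 after MPS1i. The part of such cells in the results was not tested. COL1A2 was at 0 counts in all 4 libraries and COL3A1 had 0, 2, 9 and 2 counts. Of 20 lung epithelium genes 8 were tested and LPCAT1 alone was called.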

How the data were processed

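RNA was sequenced in 16 libraries, 2 in each of 8 groups. Per the labels' protocols, sequencing libraries came from poly(A)-selected RNA with ribosomal transcripts blocked, using a QIAseq kit that keeps strand, and were run on DNBSEQ. The authors deposited counts per gene without normalization, per the file headers. The submitters' processing notes name Trim Galore, cutadapt, Trimmomatic, STAR, featureCounts and GRCh38/hg38. Versions, the strand setting and the treatment of reads with several matches are not given in the sources used here. Near-identical, overlapping, readthrough and antisense genes may therefore share reads. The deposited table has 60612 entries, including 44 duplicates from Y, and no gene of the mitochondrial genome.

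Fits used R 4.3.3 and edgeR 4.0.16 with TMM scaling, filterByExpr (minimum count 10, minimum total 15), robust quasi-likelihood dispersion and 1 mean per group over all 16 libraries, which leaves 8 residual degrees of freedom. Benjamini-Hochberg adjustment ran over the 17950 genes kept for each contrast, and calls used 0.05. Standard errors were computed as |log2 fold change| over the root of F. Floors of 3 counts per library cover counting error only. On simulated data with known changes the fit recovered 67.2%, 92.5% and 100% of genes changed by 0.5, 1 and 2 on the log2 scale, with 11 false calls among 17451 genes run. The changed genes were drawn only from those with a mean of at least 1 CPM. Before the change each gene had the same mean level in every group. Recovery of genes under 1 CPM was therefore not measured.

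Named genes are 13 fixed ones, the 12 largest rises and falls at a mean of at least 1 CPM, the 10 smallest adjusted p, up to 5 called members of each list and those against its majority, and up to 6 genes a side whose effect differed from all 3 other genotypes. Other names outside this rule (KNL1, CDC20, CCNB1, PLK1, DDIT3, TRIB3, PHGDH, PCK2, ORC1, TYMS, TK1, PRIM1, PCNA, MCM2, MCM6, MCM7, MCM10, CHAF1A, CHAF1B, CLSPN, MUC2, MUC12, MMP1, CCN1, IL6, NFKBIA, H4C14, UHRF1, LMNB1 and the genes given as not called) were picked with their values in view. The genes, the lists and the comparison were chosen with earlier results of these data known. Alternatives were other scalings, filters, fits and tools (limma 3.58.1 and DESeq2 1.42.0 were loaded, the latter as a second test), a replicate block and each library left out. The correlation of residuals of same-numbered replicates over 28 pairs of groups was between -0.164 and 0.208 (median 0.0177), so replicates were not paired.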

Additional observations from a re-analysis of the deposited data

Results flagged for a closer look

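Effects of the pulse that differed between genotypes are listed here by the test of the difference itself, edgeR's interaction term with the Benjamini-Hochberg adjustment. The double knockout's effect differed from that in SCR cells for 5021 genes, from that in STING cells for 848 and from that in MAVS cells for 2043.

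Among genes that fell less in the double knockout, the adjusted p against SCR cells was 4.11e-18 for PSAT1, 2.28e-15 for ASNS, 9.67e-15 for NIBAN1, 2.24e-09 for TNFRSF9 and 6.46e-07 for C5AR1. C5AR1, the receptor of complement C5a, went from 4.82 and 4.72 CPM to 3.37 and 3.12, and its fall was not called without MPS1i replicate 1 or MPS1i replicate 2 (adjusted p = 0.0501 and 0.0679). The value was 5.32e-12 for TNFRSF10D, which rose in the double knockout and fell in the 3 other genotypes.

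Among genes with a lower effect, the adjusted p against SCR cells was 7.83e-21 for TRIM22, which rose by 0.39 in the double knockout and by 5.20 in SCR cells, and 1.31e-14 for IFI35. It was 3.02e-07 for LGALS9, at 0.42 and 0.14 CPM after DMSO and 0.73 and 0.52 after MPS1i, a rise not called without DMSO replicate 2 (adjusted p = 0.485) or MPS1i replicate 1 (0.335). Low-count genes gave 0.00283 for ZSWIM8-AS1, 0.00278 for TSNAX-DISC1 and 0.00283 for HMGB1P3. HMGB1P3 had 0 counts in both MPS1i libraries and is a pseudogene that may share reads with HMGB1, and TSNAX-DISC1 is a readthrough gene. The falls of ZSWIM8-AS1 and TSNAX-DISC1 were not called without MPS1i replicate 1 (adjusted p = 0.119 and 0.0508), and that of HMGB1P3 was not called without DMSO replicate 1, MPS1i replicate 1 or MPS1i replicate 2 (0.0871, 0.223 and 0.102).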

How the results depend on the processing

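No named gene that was called changed direction under any alternative run, whereas IFIT1 and IFIH1, not called, changed sign. Upper-quartile scaling turned the balance of rises and falls in the double knockout (1553 and 1175) and of higher and lower effects against SCR (2872 and 2280) and MAVS cells (1096 and 1033). Against SCR cells it also turned with RLE scaling (2529 and 2519) and with no filter on low counts (2520 and 2411). So it did with counts thinned to the smallest library (2308 and 2203) and with DESeq2 (2130 and 2087). It did not turn with a mean of at least 1 CPM required, only the compared groups fitted, a replicate block or no robust dispersion. The number of genes called in the double knockout was 1629 when the double knockout libraries alone were fitted, and ran from 1433 to 3120 with 1 library left out. Genes called with at least a 2-fold change numbered 107 with a mean of at least 1 CPM required and 88 with DESeq2, which left 4524 adjusted p undefined, and ran from 144 to 298 with 1 library left out. Differences ran from 4125 to 4970 against SCR, 535 to 1107 against STING and 1434 to 2380 against MAVS cells with 1 library left out. Other settings gave between 2208 (DESeq2) and 2738 (no filter on low counts) called genes. Of 207 named genes 200 were called, 143 of them under every alternative, and DDX58, not called, was called without DMSO replicate 2, with upper-quartile scaling and with no filter (adjusted p = 0.020, 0.0358 and 0.0369). Upper-quartile scaling ended the falls of CCNG1, FOSL2, ERAP1, NPC1, DSP and UBTF (adjusted p from 0.0536 to 0.102) and left 5 NRF2 targets fallen and 4 antigen presentation genes risen.

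A replicate block gave 2666 called genes, 2596 of them shared with the 2648 called without it, 258 with at least a 2-fold change, and 5050, 854 and 2029 differences against SCR, STING and MAVS cells. It ended the calls of RTEL1-TNFRSF6B and ADAR (adjusted p = 0.0707 and 0.0535) and moved no list's count by over 1.5 times. The labels do not say that replicate numbers pair the libraries, and the double knockout's own pair correlated at -0.0686.

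At these depths and with 2 libraries a group, changes near 0.5 on the log2 scale can be missed. Recovery by expression level was not tested.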
